A study of Homo sapiens with 6 samples.

Results

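The intraflagellar transport (IFT), Bardet-Biedl syndrome (BBS) and regulatory factor X (RFX) genes were taken as all genes whose symbol is IFT, BBS or RFX followed directly by a digit, with an optional final letter. They numbered 34 of the 18417 genes measured, and comprised 3 IFT-A genes, 15 IFT-B genes, 8 BBS genes and 8 RFX genes. The cells were H441, an established human lung adenocarcinoma line. One group received a commercial pool of siRNAs against ETS2 by lipid transfection and the other a scrambled control siRNA, and total RNA was taken after 48 h. Each group held 3 Affymetrix human gene arrays, which the submitters described as independent transfections, so p-values measure the spread between transfections of 1 cell line. A single siRNA pool was set against a single control, so loss of ETS2 and any unintended target of that pool cannot be told apart.

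Cilia are built and maintained by trains of IFT proteins that run along the axoneme. IFT-B carries cargo toward the tip with kinesin-2 motors, and IFT-A carries it back with dynein 2 and admits membrane proteins. The BBSome is a coat-like complex that rides on these trains and moves signalling receptors out of the cilium. RFX proteins are winged-helix transcription factors that bind the X-box, a motif found in the promoters of many ciliary genes; RFX5 instead acts with partner proteins at MHC class II promoters. ETS2 encodes an ETS-family transcription factor whose activity responds to RAS and ERK signals.

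Levels are RMA values in log2 units, and each difference is ETS2 siRNA minus control siRNA. A gene was called changed at an adjusted p under 0.05 in limma's moderated test over all 18417 genes with Benjamini-Hochberg adjustment. Every member was read by 1 probe. ETS2 itself stood at 8.87, 8.70 and 8.78 in ETS2 siRNA cells, against 9.79, 9.91 and 9.79 in control cells, or 48.4% of its control level (difference -1.05, SE 0.0565, adjusted p = 0.000254). The array medians lay between 8.07 and 8.10. A background floor of 6.67 was set from 341 olfactory receptor genes, and 27 of the 34 members had at least 1 group mean above it. Of 10 lung epithelial markers, 9 lay above the floor in both groups, NKX2-1 among them at 10.93 in ETS2 siRNA cells and 11.03 in control cells. The surfactant gene SFTPC was not above the floor.

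Of the 34 genes, 5 fell and 0 rose after ETS2 siRNA. Over all genes 4.91% were called, 2.63% lower and 2.28% higher. The 5 were IFT52 and IFT46 of IFT-B, and RFX7, RFX5 and RFX3. They lay in 2 of the 4 groups: 2 of 15 IFT-B genes and 3 of 8 RFX genes were called, and 0 of 3 IFT-A genes and 0 of 8 BBS genes. With 4.91% called over all genes, 0 calls in groups this small does not set IFT-A or BBS apart. At an unadjusted p under 0.05 there were 13 members, all with lower values in ETS2 siRNA cells: 6 IFT-B, 4 BBS, 3 RFX and 0 IFT-A genes. Over all genes 18.5% had such a p, and 9.22% had it with a lower value in ETS2 siRNA cells. The family was chosen with earlier results of these data known, the 4 genes IFT52, IFT46, RFX7 and RFX5 in particular, so its share of calls is a description and no independent evidence. Members were chosen by symbol, the family itself was selected on its differences in this same comparison, and the mean over all 6 arrays, which would have picked among several probes, decided nothing here.

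**Figure D1:**
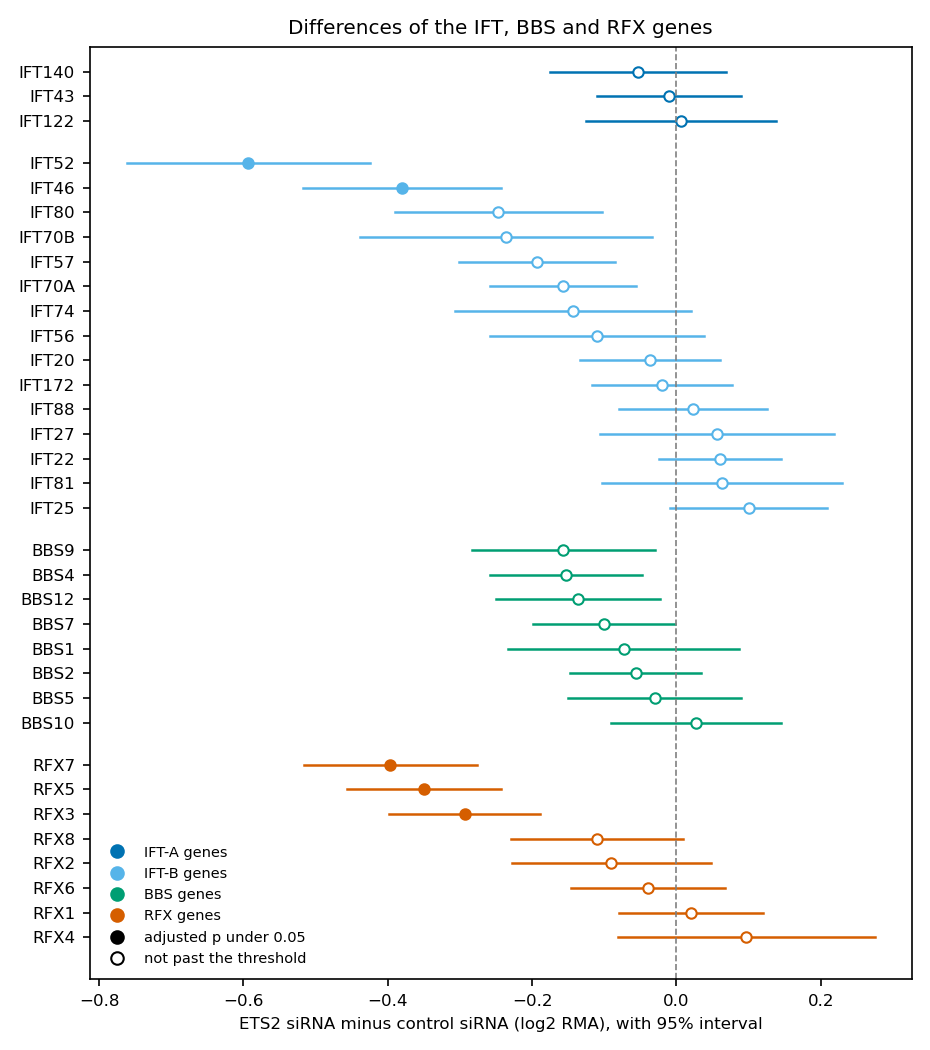
The horizontal axis gives the difference of each gene, ETS2 siRNA minus control siRNA in log2 RMA units, with limma's 95% interval, and genes are grouped as IFT-A, IFT-B, BBS and RFX from the top. Filled points mark the 5 genes with an adjusted p under 0.05, all of them left of 0, with IFT52 farthest at -0.59.

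The sequences before the start sites of the 5 genes that fell are shown because the treatment lowered a transcription factor of the ETS family. A further reason is that 3 of the 5 are themselves factors of the RFX family. ETS factors share a short core, GGAA or GGAT. The string searched here, CCGGAA, is a longer form of it, so a window without CCGGAA can still hold the shorter core. Each line gives the 250 bases before an annotated start, 5′ to 3′ on the gene's strand, from RefSeq on GRCh38.p14. Capitals mark the ETS motif CCGGAA or the X-box arm GTTGCC, read on either strand.
IFT52 (chr20:43590687-43590936, plus strand): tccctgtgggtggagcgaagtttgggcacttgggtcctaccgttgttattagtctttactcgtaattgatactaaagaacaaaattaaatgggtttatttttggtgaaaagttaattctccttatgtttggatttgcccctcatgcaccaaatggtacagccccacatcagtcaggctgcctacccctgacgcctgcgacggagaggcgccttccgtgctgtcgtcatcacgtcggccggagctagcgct
IFT46 (chr11:118565932-118566181, minus strand): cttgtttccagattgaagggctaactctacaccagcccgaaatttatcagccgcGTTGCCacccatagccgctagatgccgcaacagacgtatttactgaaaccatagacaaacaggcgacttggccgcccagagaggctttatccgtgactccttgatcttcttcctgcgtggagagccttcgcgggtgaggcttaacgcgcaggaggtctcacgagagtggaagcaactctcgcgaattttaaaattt
RFX7 (chr15:56243880-56244129, minus strand, the inner of its start sites): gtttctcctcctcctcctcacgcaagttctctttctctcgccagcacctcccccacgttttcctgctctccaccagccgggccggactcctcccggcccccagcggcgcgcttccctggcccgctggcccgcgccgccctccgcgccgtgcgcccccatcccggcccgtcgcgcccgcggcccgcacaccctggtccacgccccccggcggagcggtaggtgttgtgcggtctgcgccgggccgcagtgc
RFX7 (chr15:56245083-56245332, minus strand, the outermost of its start sites): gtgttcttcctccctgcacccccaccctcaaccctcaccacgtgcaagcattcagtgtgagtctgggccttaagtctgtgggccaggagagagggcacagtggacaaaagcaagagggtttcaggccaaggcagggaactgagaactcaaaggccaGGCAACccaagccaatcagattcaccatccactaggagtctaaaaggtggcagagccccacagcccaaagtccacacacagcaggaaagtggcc
RFX5 (chr1:151346857-151347106, minus strand, the innermost of its start sites): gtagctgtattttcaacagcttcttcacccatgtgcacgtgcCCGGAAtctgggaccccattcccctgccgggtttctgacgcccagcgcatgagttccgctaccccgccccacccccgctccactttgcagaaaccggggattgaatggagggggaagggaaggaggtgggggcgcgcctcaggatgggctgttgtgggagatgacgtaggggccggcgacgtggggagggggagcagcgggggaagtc
RFX3 (chr9:3526002-3526251, minus strand, the outermost of its start sites): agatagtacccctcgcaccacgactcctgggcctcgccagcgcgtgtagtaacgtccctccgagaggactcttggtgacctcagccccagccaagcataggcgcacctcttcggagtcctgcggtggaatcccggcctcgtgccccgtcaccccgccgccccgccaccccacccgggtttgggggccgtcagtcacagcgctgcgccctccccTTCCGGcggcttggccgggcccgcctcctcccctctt

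The ETS motif CCGGAA stood 208 bases before the RFX5 start shown, and the same site lay 65 bases before a second RFX5 start. In RFX3 it was present on the opposite strand, with its first base 37 bases before the start. The X-box arm stood 196 bases before the start of IFT46 and, on the opposite strand, 94 bases before the outermost start of RFX7. Neither motif was present in the IFT52 window, which says only that these letters are not in it. RFX5 has 3 windows, and RFX7 and RFX3 have 2 each. Neither motif was present in the outermost RFX5 window or the inner RFX3 window, which are not printed, or in the inner RFX7 window. The matches in these genes therefore depend on the start site.

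Windows of 300 bases, with 50 bases after the start, were found for 29 of the 34 members. All but RFX8, RFX6, RFX2, IFT22 and BBS9 were matched by symbol. CCGGAA, on either strand, was in a window of 14 of these 29 genes (48.3%), against 27.0% of the 14239 tested genes with a window. By group it was in 1 of 3 IFT-A, 7 of 14 IFT-B, 3 of 7 BBS and 3 of 5 RFX genes. It was in 2 of the 5 members that fell. Over all genes it was in 24.6% of those that fell after ETS2 siRNA and 33.1% of those that rose. GTTGCC, on either strand, was in 15 of the 29 (51.7%), against 16.5% of the tested genes, and in 2 of the 5 that fell. A longer motif that holds both arms of the X-box, GTTGCC and, after any pair of bases, GGNAAC, was found on either strand in IFT70A and RFX4, 2 of 29 (6.9%) against 0.562% of the tested genes. The 2 short motifs can share bases where they meet, genes with several start sites had more windows searched, and a match is not evidence of binding.

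Among the IFT-B genes, IFT52 had the largest difference of the whole family. It encodes a core subunit that holds other IFT-B proteins together. Its levels were 8.65, 8.68 and 8.46 in ETS2 siRNA cells, against 9.12, 9.31 and 9.14 in control cells. All ETS2 siRNA arrays lay below all control arrays, with a gap of 0.44 between the groups, which exceeded the SD of either (0.12 and 0.10). The difference of -0.59 had an SE of 0.0731 and a 95% interval from -0.76 to -0.43 (adjusted p = 0.00541), a level 33.7% below control. It was called under each of the 14 alternative settings tried, with differences from -0.64 to -0.53.

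IFT46, another core IFT-B subunit, known from Chlamydomonas for its part in the transport of outer dynein arms, stood at 8.87, 8.80 and 8.82 in ETS2 siRNA cells, against 9.16, 9.34 and 9.13 in control cells. The groups did not overlap, and the ETS2 siRNA arrays lay close together (SD 0.0361) while control replicate 2 was the highest of its group. The difference was -0.38 (SE 0.0596, 95% interval from -0.52 to -0.24, adjusted p = 0.0124), a level 23.2% below control. The call was lost without ETS2 siRNA replicate 2 or 3, with an adjusted p of up to 0.0659 over the 14 settings.

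The other 13 IFT-B genes did not pass the threshold. In 4 of these 13 the ETS2 siRNA arrays lay below the control arrays without overlap, against 11.5% of all genes. IFT57, a peripheral IFT-B subunit that also binds a huntingtin-interacting protein, had 9.31, 9.34 and 9.42 in ETS2 siRNA cells, against 9.59, 9.57 and 9.49 in control cells (difference -0.19, SE 0.0470, adjusted p = 0.0595). IFT80, a subunit altered in a form of skeletal ciliopathy, had 9.76, 9.76 and 9.74 in ETS2 siRNA cells, against 9.86, 10.11 and 10.03 in control cells (difference -0.25, SE 0.0626, adjusted p = 0.0689). Both sit just outside the threshold, and IFT57 was called under 4 and IFT80 under 5 of the 14 alternative settings.

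IFT70A and IFT70B encode close paralogues that bind IFT52, and the array may not fully separate their transcripts. IFT70A stood at 7.69, 7.76 and 7.74 in ETS2 siRNA cells, against 7.83, 7.94 and 7.89 in control cells (difference -0.16, adjusted p = 0.0920). IFT70B stood at 6.27, 6.40 and 6.66 in ETS2 siRNA cells, against 6.67, 6.70 and 6.67 in control cells (difference -0.24, adjusted p = 0.191). ETS2 siRNA replicate 3 of IFT70B nearly reached the control arrays, and the gap was 0.01. The control mean of IFT70B, 6.68, lay at the background floor.

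The remaining 9 IFT-B genes lay between -0.14 and 0.10. IFT25 and IFT27 form a pair at the edge of the complex that in mice is needed for Hedgehog signalling more than for building the cilium. IFT25 had 9.84, 9.94 and 9.98 in ETS2 siRNA cells, against 9.82, 9.85 and 9.79 in control cells, with an overlap between the groups (difference 0.10, 95% interval from -0.01 to 0.21). IFT27, a small GTPase, differed by 0.06 (95% interval from -0.11 to 0.22). IFT22, another small GTPase, was the 1 member with all ETS2 siRNA arrays (10.73, 10.73 and 10.75) above all control arrays (10.68, 10.70 and 10.65), by a gap of 0.03. Its difference of 0.06 did not pass the threshold (adjusted p = 0.461).

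IFT74 and IFT81 together bind tubulin, the main cargo. Their differences pointed apart, at -0.14 (95% interval from -0.31 to 0.02) for IFT74, which lay below the floor, and 0.06 (95% interval from -0.10 to 0.23) for IFT81. IFT88, a core subunit that binds IFT52, stood at 7.02, 7.05 and 6.95 in ETS2 siRNA cells, against 6.94, 7.03 and 6.98 in control cells. Its groups overlapped, and the interval of its difference, from -0.08 to 0.13, did not reach the size seen for IFT52. IFT172, the large peripheral subunit, differed by -0.02, IFT20, which is also anchored at the Golgi, by -0.04, and IFT56 by -0.11, with adjusted p of 0.875, 0.732 and 0.440. Over the 15 IFT-B genes the median difference was -0.11, with 10 negative and 5 positive, against a median of 0.0033 over all genes.

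The 3 IFT-A genes with an IFT symbol had small differences. IFT140, a large subunit, stood at 7.57, 7.57 and 7.69 in ETS2 siRNA cells, against 7.74, 7.65 and 7.60 in control cells (difference -0.05, SE 0.0532, adjusted p = 0.681). IFT43, the small subunit, differed by -0.01 (SE 0.0433, adjusted p = 0.944), and IFT122, another large subunit, by 0.0067 (adjusted p = 0.976). The groups overlapped for all 3. Their 95% intervals together ran from -0.18 to 0.14, which leaves out the differences of IFT52 and IFT46 but not that of IFT70A. The median was -0.01. IFT-A has further subunits with other symbols, which are taken up with the related genes. Among them WDR19 differed by -0.23, so the small differences here hold only for the 3 genes named.

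No BBS gene passed the threshold. The 6 that encode BBSome subunits all had negative differences, from -0.16 to -0.03, and BBS10 and BBS12 encode chaperonin-like proteins that assemble the complex. BBS4, a subunit also found at centriolar satellites, stood at 8.55, 8.57 and 8.58 in ETS2 siRNA cells, against 8.70, 8.80 and 8.66 in control cells. The ETS2 siRNA arrays were lower without overlap and nearly equal to each other (SD 0.0153). The difference was -0.15 (SE 0.0460, 95% interval from -0.26 to -0.05, adjusted p = 0.111). BBS9, a core subunit, stood at 7.80, 7.81 and 7.86 in ETS2 siRNA cells, against 7.88, 8.08 and 7.98 in control cells (difference -0.16, SE 0.0551, adjusted p = 0.166). The gap there was 0.02, and control replicate 2 was again the highest array.

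BBS7 and BBS12 were the other BBS genes without overlap. BBS7, which joins BBS2 and BBS9 in the core, had 8.96, 9.01 and 9.05 in ETS2 siRNA cells, against 9.10, 9.15 and 9.07 in control cells (difference -0.10, adjusted p = 0.260). BBS12 differed by -0.14 (adjusted p = 0.180), with gaps of 0.02 for BBS7 and 0.01 for BBS12, and both group means of BBS12 lay below the floor. BBS2 differed by -0.06, BBS1 by -0.07, BBS5, a lipid-binding subunit also below the floor, by -0.03, and BBS10 by 0.03, each with overlap. The median of the 8 genes was -0.09, and the SEs of their differences ran from 0.0393 to 0.0696.

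Of the RFX factors, RFX7 had the largest difference. It is a factor reported to act downstream of p53 in human cells and, in mice, in natural killer cells. It stood at 9.42, 9.27 and 9.38 in ETS2 siRNA cells, against 9.70, 9.81 and 9.75 in control cells. The groups were 0.28 apart. The difference was -0.40 (SE 0.0520, 95% interval from -0.52 to -0.28, adjusted p = 0.00679), a level 24.0% below control, and it was called under all 14 alternative settings.

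RFX5 is the DNA-binding subunit of the complex that drives MHC class II genes. Its levels were 9.63, 9.68 and 9.73 in ETS2 siRNA cells, against 9.98, 10.09 and 10.02 in control cells. The groups were 0.25 apart, about the same gap as for IFT46 (0.26). The difference of -0.35 (SE 0.0462, 95% interval from -0.46 to -0.24, adjusted p = 0.00692) put it 21.5% below control, and it too was called under all 14 alternative settings.

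RFX3, a regulator of ciliary genes and of nodal cilia in mice, stood at 6.41, 6.36 and 6.35 in ETS2 siRNA cells, against 6.62, 6.74 and 6.64 in control cells. The groups did not overlap, and the difference of -0.29 had an SE of 0.0455 (95% interval from -0.40 to -0.19, adjusted p = 0.0120). Both group means, 6.37 in ETS2 siRNA cells and 6.67 in control cells, lay at or below the background floor, where RMA compresses differences. The call was lost without ETS2 siRNA replicate 2 or 3, with an adjusted p of up to 0.0661.

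RFX1 and RFX2, which are also linked to ciliary promoters, were not called. RFX2 stood at 7.82, 7.65 and 7.61 in ETS2 siRNA cells, against 7.83, 7.74 and 7.78 in control cells, with an overlap through ETS2 siRNA replicate 1 (difference -0.09, 95% interval from -0.23 to 0.05). RFX1 differed by 0.02 (95% interval from -0.08 to 0.12). RFX4, known from brain and testis, RFX6, known from pancreatic islets, and RFX8 lay below the floor in both groups, with differences of 0.10, -0.04 and -0.11 and no call. The median over the 8 RFX genes was -0.10, with 6 negative and 2 positive.

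**Figure D2:**
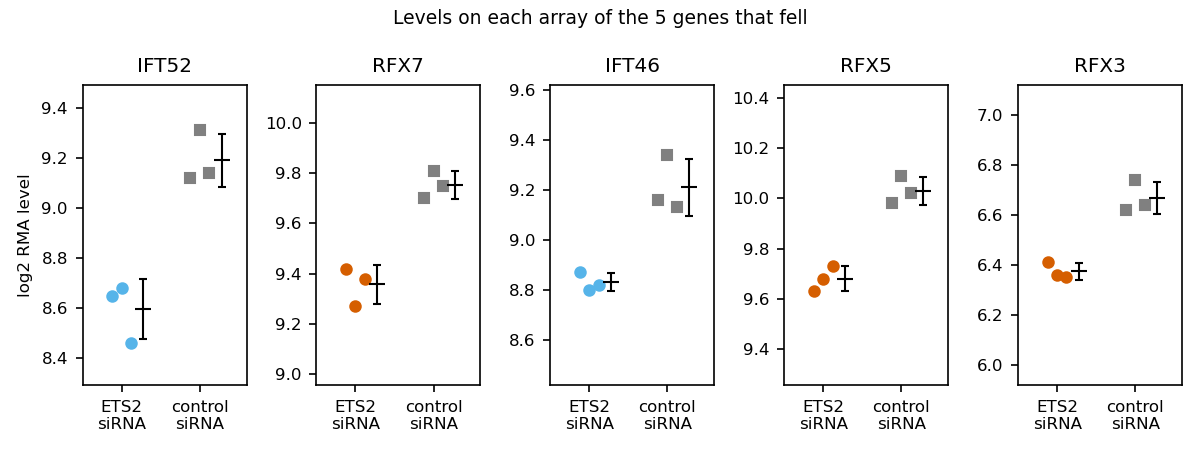
Points give the log2 RMA level on each array (replicates 1 to 3 from the left) of the 5 genes that fell, ETS2 siRNA in colour at the left of each panel and control siRNA in grey, with the mean and SD beside them. Each panel spans the same range of log2 units, and in each all ETS2 siRNA arrays lie below all control arrays, with gaps from 0.21 for RFX3 to 0.44 for IFT52.

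Averaged over the family, each ETS2 siRNA array lay below each control array. For each gene the mean of its control arrays was subtracted and the deviations were averaged over the 34 genes. This gave -0.12, -0.10 and -0.11 for the ETS2 siRNA arrays, against -0.02, 0.05 and -0.04 for the control arrays. Over all genes the same averages lay between -0.0036 and 0.0096. The family was selected on its differences in this same comparison, so its averages are a description and no independent evidence. Control replicate 2 was the highest control array for the IFT-A, IFT-B and BBS averages. For the RFX average it was nearly tied with control replicate 1 (0.0237 and 0.0212). Without control replicate 2 the same 5 members were called, and the median difference over the members was -0.06, against -0.08 with all arrays.

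With the 5 called genes left out, the deviations of the other 29 were -0.07, -0.05 and -0.06 on the ETS2 siRNA arrays. On the control arrays they were -0.01, 0.05 and -0.04, so ETS2 siRNA replicate 2 (-0.046) lay close to control replicate 3 (-0.040). By group, the RFX genes stood at -0.10, -0.18 and -0.15, the IFT-B genes at -0.15, -0.10 and -0.11, the BBS genes at -0.09, -0.07 and -0.10 and the IFT-A genes at -0.08, 0.0089 and 0.01. On the control arrays the RFX genes stood at 0.02, 0.02 and -0.045 and the IFT-B genes at -0.03, 0.07 and -0.03. The BBS genes stood there at -0.02, 0.07 and -0.05 and the IFT-A genes at 0.0022, 0.03 and -0.03. The IFT-A average was near that of the controls on 2 of the 3 arrays. Over all 34 genes, 25 differences were negative (73.5%), against 47.3% of all genes. The ETS2 siRNA arrays lay below the control arrays without overlap for 13 members (38.2%), against 11.5% of all genes, and above them for 1 member, against 11.6% of all genes. Because of how the family was selected, these deviations and shares are likewise a description only. The spread between replicates was ordinary, with a median SD of 0.0508 in ETS2 siRNA cells and 0.0612 in control cells, against 0.0503 and 0.0603 over all genes.

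**Figure D3:**
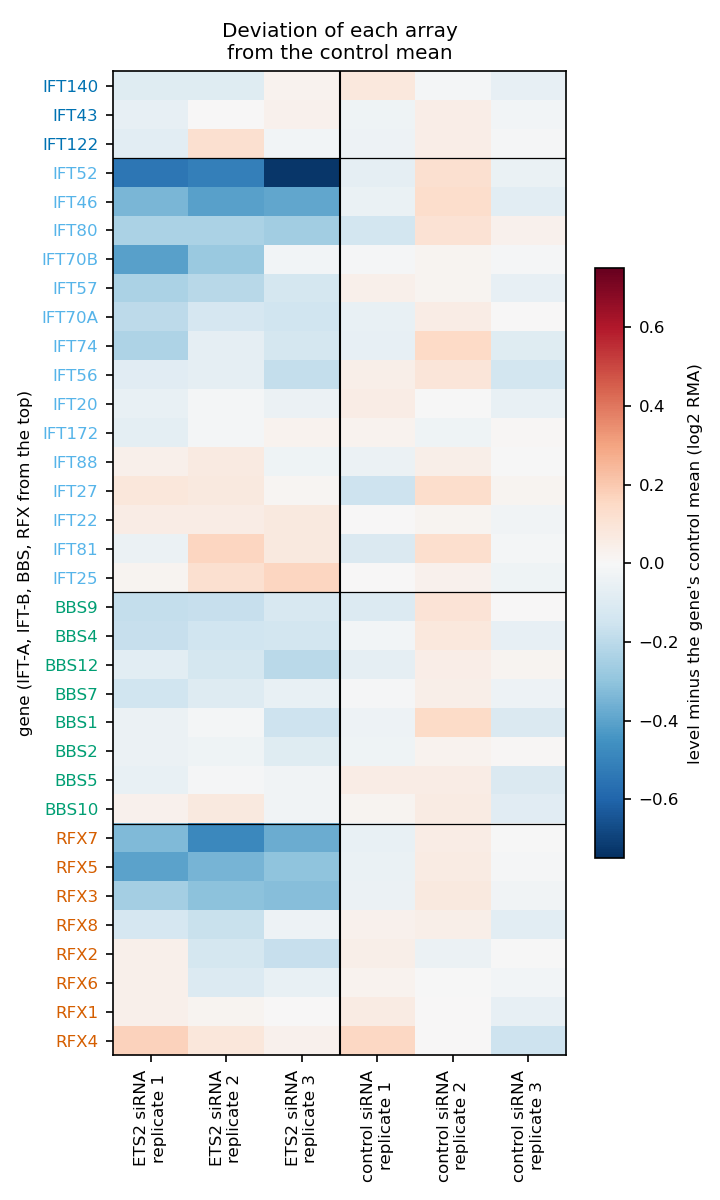
Each cell gives the level of a gene on an array minus the mean of that gene's 3 control arrays, in log2 RMA units, with ETS2 siRNA arrays left of the line and control arrays right of it, and genes grouped as IFT-A, IFT-B, BBS and RFX. The 5 called genes are blue on all 3 ETS2 siRNA arrays, IFT52 the darkest, while IFT70B is dark on ETS2 siRNA replicate 1 and pale on replicate 3, and the IFT-A rows are pale throughout.

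Related genes were described from lists that hold the subunits with other symbols, the motors and the compartments they serve. Over all genes 4.91% were called, so 1 call or 0 calls in lists of this size does not set a list apart. Of 10 further IFT and BBS genes under other symbols, 1 fell and 0 rose. It was ARL6, the small GTPase, also known as BBS3, that recruits the BBSome to membranes. ARL6 stood at 7.09, 7.18 and 7.27 in ETS2 siRNA cells, against 7.60, 7.52 and 7.64 in control cells. The groups did not overlap (difference -0.41, SE 0.0562, 95% interval from -0.54 to -0.28, adjusted p = 0.00774). That is about the size seen for RFX7, and it was called under all 14 alternative settings.

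With these genes included, the full IFT-A complex had 0 of 6 subunits called and a median of -0.06. WDR19, one of its large subunits, stood at 7.26, 7.40 and 7.26 in ETS2 siRNA cells, against 7.39, 7.66 and 7.57 in control cells, with an overlap between 7.39 and 7.40 (difference -0.23, adjusted p = 0.127). WDR35 differed by -0.11 (adjusted p = 0.398). The full IFT-B complex had 2 of 17 called and a median of -0.11, and the 7 BBSome subunits 0 called and a median of -0.07. ARL6 was the 1 call among the 6 chaperonins and partners, with a median of -0.04.

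The motors that drive the trains showed no call among 9 genes, and their median was 0.04. KIF3B, a kinesin-2 subunit, differed by 0.17 (adjusted p = 0.0905) and DYNC2LI1, a dynein 2 light intermediate chain below the floor, by 0.20 (adjusted p = 0.112). Proteins of the transition zone, the gate at the base of the cilium, had 0 of 16 called and a median of 0.03. There TCTN2 differed by -0.24 (adjusted p = 0.0574) and CC2D2A by 0.22 (adjusted p = 0.0687). Ciliary membrane and Hedgehog genes had 0 of 11 called and a median of 0.01, with the receptor PTCH1 at -0.14 (adjusted p = 0.0888) and the inhibitor SUFU at -0.09 (adjusted p = 0.237). Markers of multiciliated airway cells had 0 of 16 called and a median of -0.01, and 9 of the 16 lay below the floor. RSPH9 differed by 0.12 and TPPP3 by 0.06, while FOXJ1, the master regulator of motile cilia, stood at 7.06 in ETS2 siRNA cells and 7.07 in control cells.

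Genes tied to the RFX factors that fell were described in the same way. Of 14 partners of RFX5 and MHC class II genes, 1 fell (7.14%, against 4.91% of all genes called) and 0 rose, with a median of -0.04. HLA-DRA and HLA-DRB1 were not among the 14, so the list does not cover all class II genes. HLA-DPA1, HLA-DPB1, HLA-DQA1 and HLA-DQB1 lay below the floor in both groups, so little can be said of a change in them. HLA-DMA, which helps load peptides onto class II molecules, stood at 8.41, 8.57 and 8.43 in ETS2 siRNA cells, against 8.78, 8.79 and 8.66 in control cells (difference -0.27, SE 0.0577, adjusted p = 0.0362). Its 3 probes read -0.27, -0.29 and -0.29, but the last 2 had the same mean in each group and are not separate readings. The call was lost on leaving out any array other than ETS2 siRNA replicate 2 (adjusted p up to 0.147). The partner subunits RFXANK and RFXAP differed by -0.05 and -0.03 and the coactivator CIITA by 0.02, none called.

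Among 8 genes reported to act downstream of RFX7, 1 fell (12.5%, against 4.91% of all genes called) and 0 rose, with a median of -0.06. PNRC1, a nuclear receptor coactivator, stood at 9.66, 9.65 and 9.61 in ETS2 siRNA cells, against 9.86, 9.84 and 9.85 in control cells (difference -0.21, SE 0.0368, adjusted p = 0.0183). The arrays of each group lay within 0.05 of each other. The call was lost when any 1 array other than control replicate 2 was left out (adjusted p up to 0.0908). Among markers of the cells used and of other cell types, SFTPB, a surfactant gene, fell by 0.36 (adjusted p = 0.00770) as the 1 call of 10 lung epithelial markers (median -0.0017). Leukocyte markers (8 genes, median 0.01) had CD68 at 0.17 and NKG7 at 0.13, and fibroblast and endothelial markers (10 genes, median -0.02) had KDR at -0.18 and COL1A1 at 0.10, with 0 calls in both lists.

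**Figure D4:**
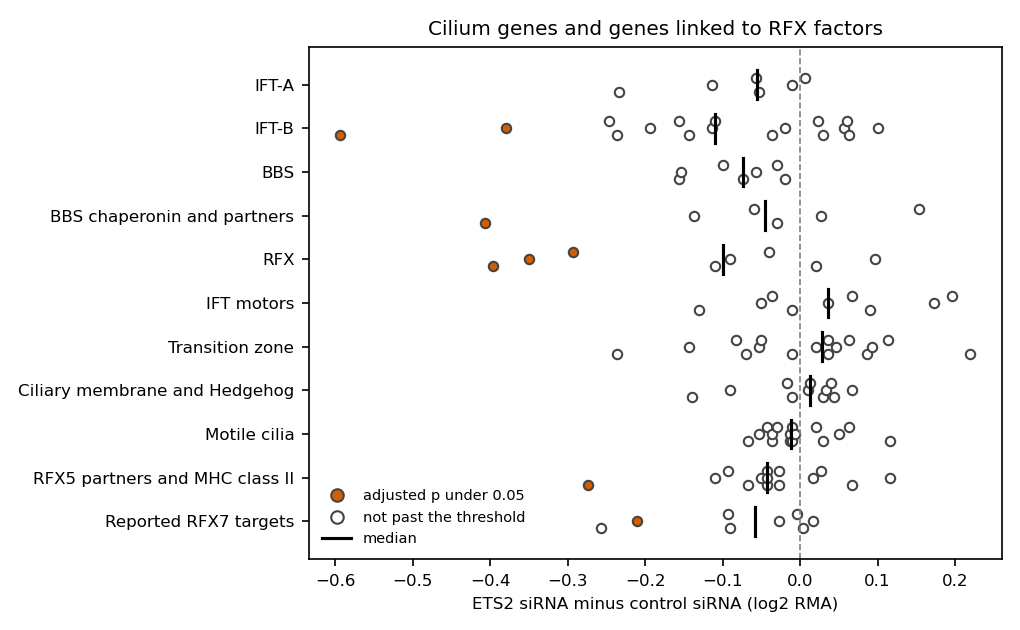
Each point is the difference of a gene, ETS2 siRNA minus control siRNA in log2 RMA units, in lists of cilium genes and of genes linked to RFX factors, with the list median as a bar and called genes filled. All 8 filled points lie left of 0, in the IFT-B, BBS partner, RFX, RFX5 and RFX7 lists. The lists for IFT-A, BBS, motors, the transition zone, ciliary membrane and Hedgehog, and motile cilia hold none. Over all genes 4.91% were called.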

How the data were processed

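The values were deposited by the authors as log2 expression levels, 1 column per array, and the submitters' processing notes name RMA; the settings, the version and the build used are not stated in the labels. Because RMA makes the arrays' distributions alike, a change common to every gene would not be seen. The number of arrays limits the precision. Of 33297 probes, 19460 carried 1 gene symbol in the platform annotation, and 19429 of these could be looked up in RefSeq by gene identifier, with 0 differences in symbol. The probe with the highest mean over the 6 arrays stood for a gene, which left 18417 genes. The model was limma's (version 3.58.1, R 4.3.3), with all 6 arrays in it (lmFit and eBayes, no intensity trend, two-sided, Benjamini-Hochberg adjustment over all genes, threshold 0.05). Dim genes were kept. With 3 arrays a group, the smallest p of an exact permutation test is 0.1, so none was used. The fit was tested on simulated data.

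The members and the 14 gene lists were chosen with earlier results of these data known. Named in full are ETS2, the called members and, in a group with none, the 2 with the smallest p; in other lists, up to 4 called genes with the largest difference, or the 2 with the smallest p. RFXANK, RFXAP, CIITA, FOXJ1, SFTPC and NKX2-1 were added after their values were seen. The floor is the 95th percentile of the mean levels of olfactory receptor genes. Alternatives were a replicate block, 3 rescalings, a floor filter, the mean over probes, 2 variance models and each array left out in turn.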

Additional observations from a re-analysis of the deposited data

How the results depend on the processing

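The count of 5 members called, all lower, was 5 with arrays median-centred, scaled on 59 ribosomal protein genes, or averaged over probes, and 7 with quantile normalisation, a filter at the floor, or an intensity trend with or without robust fitting. With 1 array left out it lay between 3 and 6, with 3 (IFT52, RFX5 and RFX7) without ETS2 siRNA replicate 2, and the cause was not tested. Over all genes the 904 calls became 1397 with the floor filter, which tests 13042 genes, 1963 with an intensity trend and 1921 with trend and robust fitting, and lay between 213 and 735 with 1 array left out, which leaves 5 arrays; the cause of the change with the trend was not tested. Of the genes named, 14 results lost the call under an alternative, all with 1 array left out: IFT46 and RFX3 under 2 each, HLA-DMA and PNRC1 under 5 each. RFX3 was not tested under the floor filter. Uncalled genes gained a call in 32 cases, 11 of them members (IFT57, IFT80, IFT70A and IFT70B). No called gene changed direction under the 14 alternatives, and rescaling moved the median of all genes to at most 0.0133. Same-numbered arrays deviated together with correlations of 0.18, 0.18 and 0.04, and other pairs with correlations from -0.20 to 0.07. ETS2 siRNA replicates 1 and 2 correlated best with the control array of their own number. ETS2 siRNA replicate 3 correlated about equally with control replicates 2 (0.041) and 3 (0.035). These values do not settle whether the numbers pair the transfections. With the replicate block 604 genes and the same 5 members were called.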
